A study of Homo sapiens with 8 samples.

Results

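How transcript levels moved between 12 h and 24 h of exposure to benzo[a]pyrene (BaP) was measured in HepG2, a cell line from a human liver tumour. The 2 libraries collected after 24 h were set against the 2 collected after 12 h. These 4 of the study's 8 libraries were chosen by their titles, and every gene with enough counts was tested. BaP was given at 2 µM to cultures at 80% confluence, in new medium. The other 4 libraries came from cells given only the vehicle, 0.5% DMSO, for 12 h or 24 h, with 2 at each time, so they too aged in their medium. The labels list DMSO as the vehicle of the BaP libraries as well. Each group held poly-A RNA from 2 independent experiments. The cells are 1 tumour line, which limits them as a model of liver. No library from before exposure was used here, so every change starts at 12 h.

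BaP is a polycyclic aromatic hydrocarbon formed when organic matter burns. It binds the aryl hydrocarbon receptor (AHR), a transcription factor that pairs with ARNT, binds DNA sites with the core GCGTG and switches on CYP1A1 and other genes of xenobiotic metabolism, among them AHRR, a repressor of AHR. CYP1 enzymes turn BaP into diol epoxides that form bulky adducts on DNA and into quinones that cycle between redox states. Adducts on a transcribed strand can stall RNA polymerase and call up nucleotide excision repair and p53, while redox stress activates NRF2, a factor that acts through antioxidant response elements.

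Total estimated counts were 8272319 and 12443348 in the BaP 12 h libraries and 2592272 and 16533490 in the BaP 24 h libraries. Levels are given as CPM, counts scaled to a common library size, always with replicate 1 before replicate 2. Levels of single genes use library sizes corrected by TMM, edgeR's scaling between libraries. Sums of markers and the limit for a gene without a count use the uncorrected totals, so they are on a slightly different scale. Across 7299 well-counted genes the SD of the log2 difference between the libraries of a group was 0.169 for BaP 12 h and 0.323 for BaP 24 h, against 0.245 and 0.177 for vehicle at 12 h and 24 h. The least deep of all was the first BaP 24 h library, and a gene without a count there may still be present at up to 1.16 CPM. The cells expressed hepatocyte markers, 8 genes that summed to between 23970 and 29880 CPM in the vehicle libraries and between 18610 and 21170 CPM in the BaP libraries. Every BaP sum was thus below every vehicle sum. APOB held the most counts of the 8 genes in every library, and the order of the sums did not hold for each member. HNF4A, for example, was not lower in every BaP library than in every vehicle library. For the other marker lists the sums given are those of the BaP libraries. Endothelial markers summed to at most 1.09 CPM, with KDR and TEK at 0. Lymphocyte markers summed to 1.45 and 2.09 CPM at 12 h and 6.17 and 8.41 CPM at 24 h, with CD3E and CD2 at 0. Fibroblast markers (20.9 to 32.4 CPM) had DCN and LUM at 0, macrophage markers (47.8 to 60.6 CPM) had MARCO and CD163 at 0, and bile duct markers (637 to 898 CPM) had CFTR at 0. Of 2 macrophage and 3 bile duct markers tested, 1 each was called higher at 24 h, CD14 (log2 change 0.95, adjusted p = 0.033) and KRT19 (log2 change 0.66, adjusted p = 0.03). Both calls were lost with each of the 4 BaP libraries left out.

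Of 14746 genes tested, 2573 (17.4%) differed between 24 h and 12 h of BaP at an adjusted p under 0.05 in edgeR's quasi-likelihood test. Higher at 24 h were 1490 genes (10.1%), and lower were 1083 (7.34%). The change exceeded 2-fold for 433 of the higher and 139 of the lower genes, while the median log2 fold change over all genes tested was 0.02. The groups did not overlap in 1481 of the genes called higher and 1082 of those called lower, but 8206 of all genes tested (55.6%), called or not, showed no overlap either. In bulk RNA, fewer cells of a kind and less RNA per cell cannot be told apart. The p-values rest on the spread within groups over all 8 libraries, the vehicle libraries included. With only the 4 BaP libraries fitted, 1087 genes were higher and 870 lower.

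The number of calls moved with single libraries. It was 686 higher and 518 lower when BaP 12 h replicate 1 was left out, 496 and 263 when its replicate 2 was, 2109 and 1473 when BaP 24 h replicate 1 was, and 645 and 378 when replicate 2 of that group was. Counts for groups of genes that moved by over 1.5 times are followed by their 4 values "without each BaP library", in that same order, or by what single libraries did to the 1 gene called. Without BaP 24 h replicate 1, 2 sterol synthesis genes and 1 gene each of DNA replication, heat shock and clustered histones were higher and 1 gene of the EGFR family was lower, in directions where none passed with all libraries. Leaving out a library leaves 1 group with a lone library, which is then taken to vary like the others. In what follows, a log2 change is that from 12 h to 24 h with BaP unless vehicle is named, and ± gives its SE. A lone number in brackets after a gene is also its log2 change, and one after a setting is the adjusted p there. A gene said to have risen or fallen and given with an adjusted p kept its call under each of 11 other settings unless a loss is stated, and members of a list given without a p may not have been rerun. The difference from vehicle was rerun for 10 genes only. Every count of list members called below is to be read beside 10.1% of all genes called higher and 7.34% called lower.

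Vehicle-treated cells also changed between 12 h and 24 h, in 483 genes (3.28%), of which 334 were higher (2.27%) and 149 lower (1.01%). Of the 1490 genes higher at 24 h with BaP, 1330 (89.3%) also had a fold change above 0 in vehicle, where 50.8% of all genes tested did. Of the 1083 lower genes, 986 (91%) had one below 0 in vehicle, against 49.2% of all genes. The BaP and vehicle comparisons share no library. A direct test of the difference, the change with time in BaP minus that in vehicle, was passed by 80 genes (0.543%). The change was more positive with BaP in 68 of them (0.461%) and more negative in 12 (0.0814%). At an unadjusted p under 0.05, 1403 genes passed. The 68 and 12 became 24 and 4 when vehicle 24 h replicate 1 was left out, and 249 and 99 when BaP 24 h replicate 1 was. A gene called with BaP and not with vehicle is not shown to differ between them unless it passed this test.

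**Figure D1:**
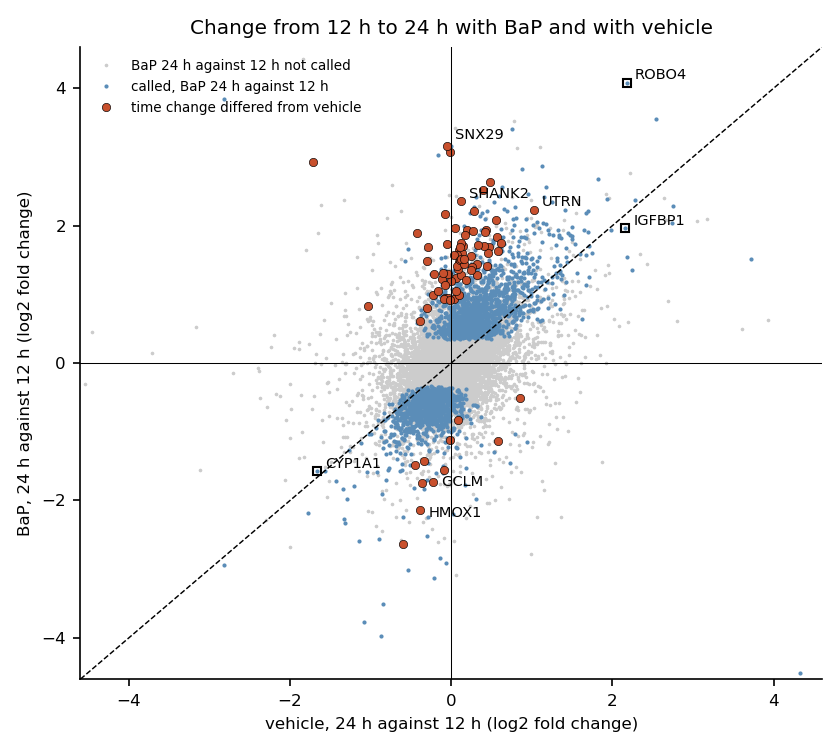
Log2 fold change from 12 h to 24 h in vehicle (horizontal axis) and in BaP (vertical axis) for 14691 genes, with 55 genes outside the axes and equal change on the dashed line. Most blue points, the genes called with BaP, lie on the same side of 0 on both axes; the red points, whose time change differed, lie mostly above 0 with BaP and near 0 with vehicle, and CYP1A1, IGFBP1 and ROBO4 (squares) were called in both.

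AHR target genes fell more often than they rose between 12 h and 24 h. Members of this list, as of the others, were chosen with earlier results of these data known, so its direction is no independent evidence. Of 13 tested, 5 fell and 1 rose, with a median log2 fold change of -0.48 (without each BaP library: 2, 3, 5 and 2 fell). CYP1A1, the monooxygenase that starts the activation of BaP, stood at 966 and 1059.8 CPM at 12 h, 376 and 306 at 24 h. Both 24 h libraries were below both 12 h libraries, and CYP1A1 fell (log2 change -1.58 ± 0.18, adjusted p = 4.5e-05). In vehicle CYP1A1 was far scarcer, at 6.57 and 3.49 CPM at 12 h, 1.61 and 1.5 at 24 h. It fell there too (log2 change -1.66 ± 0.36, adjusted p = 0.019). The difference between the time changes was 0.08 ± 0.39, adjusted p = 0.97, so a difference from vehicle was not shown on the log scale, although the fall with BaP started from a far higher level.

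AHRR, the repressor that competes with AHR for its partner and sites, had 10.1 and 7.85 CPM at 12 h, 6.38 and 3.61 at 24 h. The groups did not overlap, and AHRR fell (log2 change -1.03 ± 0.30, adjusted p = 0.027). That call was lost without BaP 12 h replicate 1 (0.191), BaP 12 h replicate 2 (0.0858) or BaP 24 h replicate 2 (0.552), with DESeq2 (0.149) and after thinning to equal depth (0.554). CYP1B1, a related enzyme that also forms diol epoxides, was rare. It had 38 counts over both 12 h libraries and 1 over both 24 h libraries, a ratio of 31 after correction for library size, with a 95% counting interval of 5.24 to 1256. Its call (adjusted p = 0.0062) was lost without BaP 12 h replicate 1 (0.0641) or BaP 24 h replicate 2 (0.145). LRRC25, a leucine-rich repeat protein, had 12.1 and 9.08 CPM at 12 h, 8.25 and 4.08 at 24 h, with no overlap. Its fall (log2 change -1.0 ± 0.32, adjusted p = 0.04) was lost without BaP 12 h replicate 1 (0.254), replicate 2 of that group (0.105) or BaP 24 h replicate 2 (0.67), with DESeq2 (0.185), with edgeR's exact test (0.0658) and after thinning (0.409). SLC7A5, the large neutral amino acid transporter, had 1039.6 and 1144 CPM at 12 h, 578 and 444 at 24 h. It fell (log2 change -1.1 ± 0.15, adjusted p = 0.00016), as it did in vehicle (log2 change -0.58 ± 0.15, adjusted p = 0.044).

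One AHR target was called higher, and others did not pass the test. CYP2S1, a cytochrome P450 outside the CYP1 family, had 42.3 and 41.5 CPM at 12 h, 57 and 58.7 at 24 h. Both 24 h libraries were the higher (log2 change 0.47 ± 0.12, adjusted p = 0.015), but the call was lost without BaP 12 h replicate 1 (0.0968), BaP 12 h replicate 2 (0.147) or BaP 24 h replicate 2 (0.118), and after thinning (0.116). NQO1, a quinone reductase that both AHR and NRF2 induce, stood at 1003 and 980.03 CPM at 12 h, 921 and 1160.04 at 24 h (log2 change 0.07, adjusted p = 0.79). ALDH3A1, an aldehyde dehydrogenase, had 34.3 and 29.6 CPM at 12 h, 42.8 and 29 at 24 h (log2 change 0.10, adjusted p = 0.9). The groups of both genes overlapped. CYP1A2 was near the detection floor at 1.74 and 1.62 CPM at 12 h, 1.88 and 1.34 at 24 h (log2 change -0.19, adjusted p = 0.84). TIPARP, a mono-ADP-ribosyltransferase that represses AHR, had 9.76 and 8.85 CPM at 12 h, 8.63 and 5.95 at 24 h (log2 change -0.48, adjusted p = 0.21). Both 24 h libraries of TIPARP were below both 12 h libraries. AHR itself was higher in both 24 h libraries without passing the test, at 27 and 30.4 CPM at 12 h, 44.3 and 36.4 at 24 h (log2 change 0.45, adjusted p = 0.072).

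The AHR core was looked for in promoters because CYP1A1 and AHRR are textbook targets of the receptor. RefSeq windows (GRCh38.p14) from 250 bases before to 50 bases after the start site were matched to 10378 of the 14746 genes (70.4%). GCGTG, read on both strands, occurred in 50.3% of all windows, in 47.4% of those of genes called higher and in 52.9% of those of genes called lower. It occurred in 7 of 11 AHR targets with a window. The stretches around the core in AHRR (chr5:321664-321708 on the plus strand) and CYP1A1 (chr15:74725561-74725605 on the minus strand) read 5′ to 3′ along the gene, with the core in capitals. The core begins 30 and 57 bases before the start site.
AHRR: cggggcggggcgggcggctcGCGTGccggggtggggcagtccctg
CYP1A1: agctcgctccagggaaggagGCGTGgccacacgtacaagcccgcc
A match describes the letters and is not a measured binding site.

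NRF2 targets held 3 of the 12 genes whose time change was more negative with BaP than with vehicle, HMOX1, GCLM and OSGIN1. Of 24 targets tested, 10 fell and 1 rose, ABCC3 (0.66), with a median of -0.07 (without each BaP library: 8, 6, 9 and 10 fell, and 1, 0, 2 and 1 rose). HMOX1, haem oxygenase 1, had 116 and 133 CPM at 12 h, 37.5 and 23.8 at 24 h. The groups did not overlap, and HMOX1 fell to 0.227 of its 12 h level (log2 change -2.14 ± 0.18, adjusted p = 7.3e-06). In vehicle it stood at 44.4 and 36.1 CPM at 12 h, 32.6 and 28.5 at 24 h. The 12 h BaP values were thus above all vehicle values and the 24 h BaP values among or below them. The difference of the time changes was -1.75 ± 0.25, adjusted p = 0.0039, lost without vehicle 24 h replicate 1 (0.0573).

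GCLM is the regulatory subunit of the enzyme that limits glutathione synthesis. It had 78.1 and 81.3 CPM at 12 h, 22.9 and 24.4 at 24 h with BaP and 13 and 17.6 CPM at 12 h, 13.1 and 13.1 at 24 h with vehicle. Both 24 h BaP libraries were below both 12 h BaP libraries and above every vehicle library (log2 change -1.74 ± 0.15, adjusted p = 2.5e-06). The difference from vehicle was -1.51 ± 0.23, adjusted p = 0.0031, lost after thinning (0.0917). OSGIN1, an oxidative stress-induced growth inhibitor, had 250.2 and 231 CPM at 12 h, 78.8 and 84.4 at 24 h with BaP. It had 49.4 and 50.1 CPM at 12 h, 43.8 and 49.9 at 24 h with vehicle, and the groups stood in the same order as for GCLM. OSGIN1 fell with BaP (log2 change -1.55 ± 0.12, adjusted p = 7.9e-07), and its difference from vehicle (-1.46 ± 0.17, adjusted p = 0.00028) was kept in all 13 other fits.

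Further NRF2 targets that fell are known for their part in glutathione and thioredoxin supply. GCLC, the catalytic partner of GCLM, had 104 and 122 CPM at 12 h, 62.7 and 56.5 at 24 h (log2 change -0.94 ± 0.13, adjusted p = 0.00022). SLC7A11, the importer of cystine, had 55.6 and 55.3 CPM at 12 h, 15.8 and 21.3 at 24 h (log2 change -1.5 ± 0.24, adjusted p = 0.0018). TXNRD1, a thioredoxin reductase, had 246 and 291 CPM at 12 h, 175 and 154 at 24 h (log2 change -0.72 ± 0.13, adjusted p = 0.0015). In all 3 the groups did not overlap, and none passed the test of the difference from vehicle. GSR (-0.61), which reduces glutathione, PGD (-0.39), which makes NADPH, AKR1B10 (-0.59), a reductase of aldehydes, and MAFG (-0.46), a partner of NRF2, completed the 10 that fell.

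The antioxidant response element was searched as TGACNNNGC on both strands. It was found in 15.3% of all windows and in 3 of 17 NRF2 targets with a window, all 3 of them among the 6 called lower. GCLM (chr1:93909436-93909484 on the minus strand) and TXNRD1 (chr12:104215751-104215799 on the plus strand) are shown since both fell. The element, in capitals, reads on the opposite strand in both and begins 34 and 8 bases before the start site.
GCLM: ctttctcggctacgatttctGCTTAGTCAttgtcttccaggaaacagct
TXNRD1: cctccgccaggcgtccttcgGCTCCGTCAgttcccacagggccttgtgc
OSGIN1 had no match in its window, which says only that these letters are not there.

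**Figure D2:**
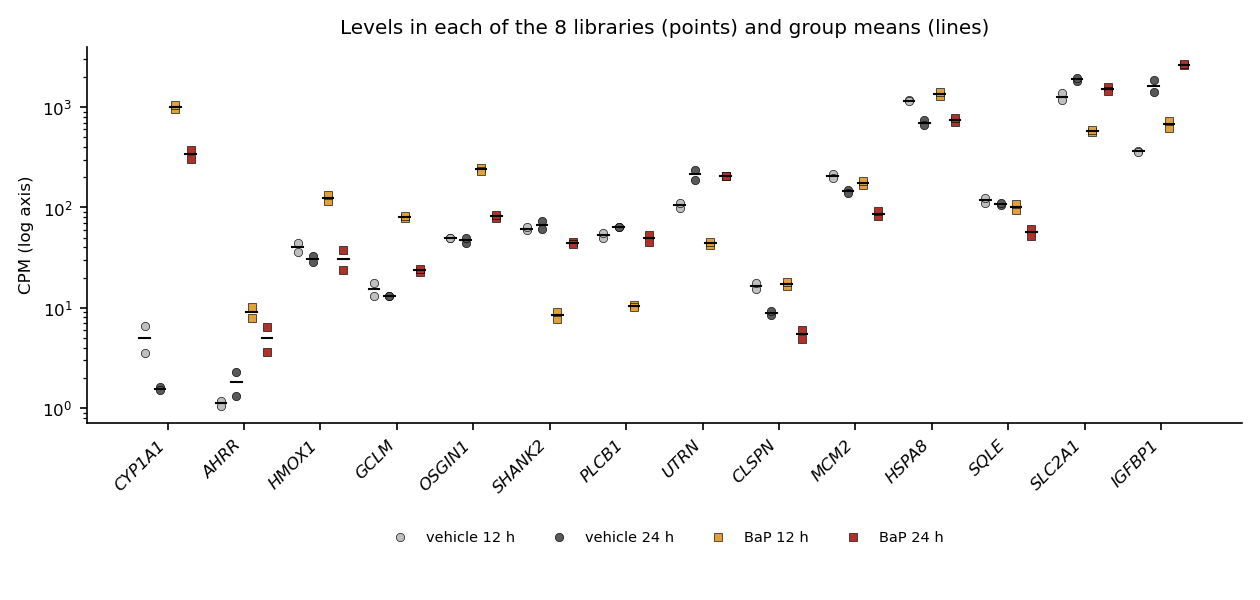
CPM on a log axis of 14 genes in each of the 8 libraries (points), with the mean of each group of 2 libraries (lines). CYP1A1, HMOX1, GCLM and OSGIN1 were highest in the BaP 12 h libraries and lower by 24 h, SHANK2, PLCB1 and UTRN were lowest in the BaP 12 h libraries and higher by 24 h, and CLSPN, MCM2 and HSPA8 were lower at 24 h than at 12 h in both treatments.

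Genes that span long stretches of the genome were called higher at 24 h more often than short ones. Genomic span is the distance from the first to the last base of a gene over all its transcripts in GENCODE 29, which can exceed the length of the transcript in use. It was known for 13597 genes tested (92.2%). By span, the medians of the log2 fold change were 0.02 up to 30 kb (6927 genes), -0.03 from 30 kb to 100 kb (4358 genes) and 0.05 from 100 kb to 200 kb (1481 genes). They were 0.25 from 200 kb to 300 kb (443 genes), 0.46 from 300 kb to 500 kb (263 genes) and 0.69 above 500 kb (125 genes). Vehicle medians over these classes lay between -0.02 and 0.12. Called higher with BaP were 9.17% of the genes up to 30 kb, 27.1% of those between 200 kb and 300 kb, 41.4% of those between 300 kb and 500 kb and 37.6% of those above 500 kb, against 10.1% of all genes. Above 300 kb, 2 genes were lower, named for that after the values were seen, CD36 (-1.4), a fatty acid receptor, and RUNX1 (-0.53), a transcription factor.

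The rise with span appeared in each of the 4 pairings of a 24 h library with a 12 h library. For the 70 genes above 500 kb with a mean of at least 5 CPM the median log2 difference was 1.18, 1.03, 0.908 and 0.877 in the 4 pairings. For the 4896 such genes up to 30 kb it lay between -0.08 and 0.06. The number of genes above 500 kb called higher was 47 and stayed within 1.5 times of that without each BaP library (42, 41, 53 and 39). Between 300 kb and 500 kb the number was 109 (62, 63, 100 and 72), between 200 kb and 300 kb 120 (58, 61, 114 and 61), and up to 30 kb 635 (299, 160, 1109 and 204). With no filter on low counts the medians were lower, 0.16 above 500 kb, 0.32 between 300 kb and 500 kb and 0.14 between 200 kb and 300 kb.

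The longest genes were not alike, by a division made after the values were seen. Of 74 genes between 500 kb and 750 kb, 31 were higher, with a median of 0.81. Of 30 genes between 750 kb and 1000 kb, 13 were higher, with a median of 0.70. Of 21 genes above 1000 kb, 3 were higher, KAZN (1.29), TBC1D5 (1.51) and MAGI2 (2.1), with a median of 0.13, and 1 was lower, RUNX1. Where the mean was at least 5 CPM, the medians of these classes, in the same order, were 1.14, 1.41 and 0.14. Of those genes 27 of 43, 12 of 17 and 2 of 10 were higher. GPC6 and DMD, named after their values were seen, were among the genes above 1000 kb that did not pass. GPC6, a glypican of 1181 kb, had 11.2 and 12.7 CPM at 12 h, 9.0 and 9.9 at 24 h with BaP (log2 change -0.31, adjusted p = 0.23) and 35 and 37 CPM at 12 h, 34.6 and 33.9 at 24 h with vehicle. All 4 BaP values of GPC6 were below all vehicle values. DMD, the dystrophin gene of 2242 kb, had 31.7 and 33.9 CPM at 12 h, 34.9 and 41.3 at 24 h (log2 change 0.24, adjusted p = 0.27). Its paralog UTRN, of 567 kb, had 42.3 and 45.4 CPM at 12 h, 205 and 208 at 24 h. UTRN rose (log2 change 2.23 ± 0.13, adjusted p = 1.8e-07), by more than in vehicle (difference 1.21 ± 0.18, adjusted p = 0.0031).

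**Figure D3:**
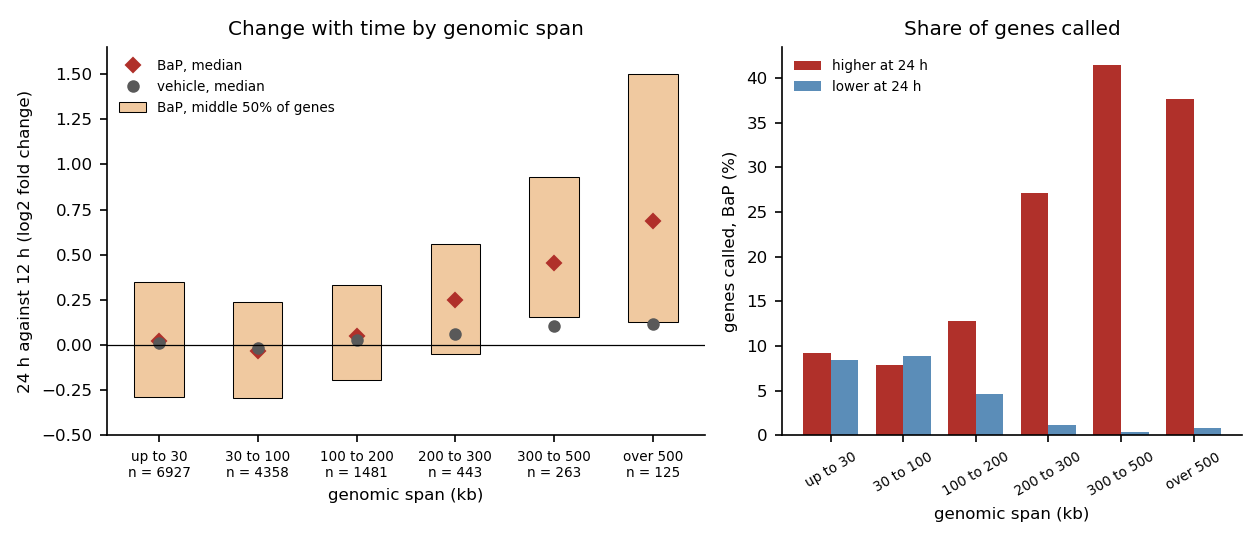
Left, median log2 fold change from 12 h to 24 h by genomic span in kb, for BaP (diamonds, with the middle 50% of genes as boxes) and vehicle (circles). Right, percent of the genes in each class called higher or lower with BaP. The BaP median is 0.02 up to 30 kb and 0.69 above 500 kb, while every vehicle median is at or below 0.12.

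Genes whose time change was more positive with BaP than with vehicle were mostly long. Of the 68, spans were known for 67. Of these, 57 spanned over 200 kb, where 831 of all genes tested did, and 29 spanned over 500 kb, where 125 did. Their median span was 454 kb, against 29.2 kb over all genes tested. The count of 68 became 28 or 43 on leaving out BaP 12 h replicate 1 or 2, and 249 or 73 on leaving out BaP 24 h replicate 1 or 2. For the vehicle libraries it became 43 or 70 at 12 h and 24 or 38 at 24 h, again for replicate 1 or 2.

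SNX29, a sorting nexin of 598 kb, had 0.233 and 1.0 CPM at 12 h, 6.0 and 6.29 at 24 h with BaP and 20.3 and 21.2 CPM at 12 h, 19.1 and 21.2 at 24 h with vehicle. The 24 h BaP values were above the 12 h values and still below every vehicle value. SNX29 rose (log2 change 3.15 ± 0.36, adjusted p = 2.4e-05), and its difference from vehicle was 3.21 ± 0.41, adjusted p = 0.00091. SHANK2, a scaffold protein of 785 kb, had 7.67 and 9.16 CPM at 12 h, 45 and 42.8 at 24 h with BaP and 59.9 and 63.2 CPM at 12 h, 61.6 and 72.6 at 24 h with vehicle. The order was the same, and SHANK2 rose (log2 change 2.36 ± 0.15, adjusted p = 2.2e-07; difference 2.24 ± 0.20, adjusted p = 3.2e-05). In both genes the 12 h BaP libraries were the lowest of the 8, and the difference was kept in all 13 other fits.

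PITPNC1, a phosphatidylinositol transfer protein of 319.98 kb, had 1.74 and 1.85 CPM at 12 h, 10.1 and 7.29 at 24 h with BaP and 8.26 and 7.76 CPM at 12 h, 7.9 and 7.13 at 24 h with vehicle. It rose to around the vehicle level (log2 change 2.16 ± 0.27, adjusted p = 6.6e-05), and the difference (2.24 ± 0.35, adjusted p = 0.0037) was lost after thinning (0.23). DIAPH2, a formin of 920.3 kb, had 0.814 and 1.39 CPM at 12 h, 6.38 and 6.69 at 24 h (log2 change 2.51 ± 0.31, adjusted p = 5.5e-05). Its difference from vehicle (2.12 ± 0.38, adjusted p = 0.014) was lost after thinning (0.762) and without BaP 12 h replicate 1 (0.123), BaP 24 h replicate 2 (0.0862) or vehicle 24 h replicate 1 (0.103). PLCB1, a phospholipase C of 891 kb, had 10.7 and 10.2 CPM at 12 h, 53.3 and 45.2 at 24 h (log2 change 2.21 ± 0.15, adjusted p = 2.2e-07). MAGI1, a junction scaffold of 685 kb, had 20.5 and 23.6 CPM at 12 h, 86.7 and 83.6 at 24 h (log2 change 1.94 ± 0.13, adjusted p = 2.2e-07). At 24 h MAGI1 was above each of its vehicle values, 58.1 and 60.4 CPM at 12 h, 68.4 and 67.3 at 24 h. PRKCA, protein kinase C alpha, had 12.8 and 13.6 CPM at 12 h, 38.3 and 45.6 at 24 h (log2 change 1.69 ± 0.14, adjusted p = 1.8e-06). It stayed below each of its vehicle values, 80.4 and 85.7 CPM at 12 h, 68.3 and 67.1 at 24 h. PARD3, a polarity protein, and TTC28, a protein of tetratricopeptide repeats, also rose, by 1.5 ± 0.13 and 1.96 ± 0.17 on the log2 scale. Of 33 tested members of a list of very long genes 21 were higher and none lower, but part of that list was taken for low values in these BaP 12 h libraries, so its direction is no independent evidence.

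Among the 68, 5 genes spanned up to 100 kb, named after their values were seen. PLTP, the phospholipid transfer protein, had 32 and 32.7 CPM at 12 h, 65.3 and 58 at 24 h with BaP and 28.3 and 24.5 CPM at 12 h, 25.5 and 27.2 at 24 h with vehicle (difference 0.92 ± 0.19, adjusted p = 0.035). ACSL5, an acyl-CoA synthetase, had 38 and 36.3 CPM at 12 h, 79.9 and 97.3 at 24 h with BaP and 50.8 and 48.7 CPM at 12 h, 57.7 and 66.9 at 24 h with vehicle (difference 0.96 ± 0.18, adjusted p = 0.02). TNS4, a tensin of focal adhesions, had 99.4 and 91.1 CPM at 12 h, 261 and 228 at 24 h with BaP and 206 and 142 CPM at 12 h, 215 and 197 at 24 h with vehicle (difference 1.11 ± 0.22, adjusted p = 0.031). In these 3 both 24 h BaP libraries were the highest of the 8. The other two were noncoding, LINC00963 (difference 1.02) and CERS6-AS1 (difference 4.64), an antisense RNA whose reads cannot be told apart from those of its partner where counting is not stated to use strand.

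Besides the NRF2 targets, 9 genes had a more negative change than in vehicle, with 4 of all 12 lacking a symbol. The count of 12 became 6 or 7 on leaving out BaP 12 h replicate 1 or 2, 99 or 21 for BaP 24 h, 9 or 13 for vehicle 12 h and 4 or 7 for vehicle 24 h. ABHD4, a lysophospholipase named after its values were seen, had 317 and 300.4 CPM at 12 h, 152 and 133 at 24 h with BaP and 90.5 and 80.8 CPM at 12 h, 88.6 and 81 at 24 h with vehicle. Its 12 h BaP values were the highest of the 8 (difference -1.12 ± 0.17, adjusted p = 0.0033). ZNF746, a zinc finger repressor, had 63 and 57.7 CPM at 12 h, 25.1 and 21.1 at 24 h with BaP and 20.7 and 25.2 CPM at 12 h, 17.7 and 18.8 at 24 h with vehicle. It fell from the highest 12 h values (log2 change -1.43 ± 0.15, adjusted p = 1.4e-05; difference -1.09 ± 0.21, adjusted p = 0.027). ATOH8, a basic helix-loop-helix factor under BMP control, had 20.1 and 17.6 CPM at 12 h, 6.38 and 5.35 at 24 h and fell (log2 change -1.75 ± 0.20, adjusted p = 3.2e-05). Its difference from vehicle (-1.38 ± 0.28, adjusted p = 0.032) was lost in 9 other fits (0.0588 to 0.471), with each of 7 libraries left out (all but BaP 24 h replicate 1). GABARAPL1, an autophagy protein, had 22.9 and 19.9 CPM at 12 h, 12 and 16.3 at 24 h with BaP (log2 change -0.51, adjusted p = 0.069) and 5.98 and 6.78 CPM at 12 h, 10.4 and 13.3 at 24 h with vehicle. Its difference (-1.37 ± 0.28, adjusted p = 0.03) was lost in 8 other fits (0.0514 to 0.194), with each of 6 libraries left out (all but both of BaP 24 h).

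Genes of DNA replication were lower at 24 h. Of 41 tested, 20 fell and none rose, with a median log2 fold change of -0.45, beside a vehicle median of -0.43 (without each BaP library: 16, 10, 19 and 15 fell). None passed the test of the difference from vehicle. MCM2, a subunit of the replicative helicase, had 167 and 184 CPM at 12 h, 81.8 and 91.2 at 24 h (log2 change -1.01 ± 0.12, adjusted p = 4.5e-05). MCM5 of the same helicase had 167 and 177 CPM at 12 h, 95.7 and 91.8 at 24 h (log2 change -0.88 ± 0.13, adjusted p = 0.00025). RRM2, the regulatory subunit of ribonucleotide reductase, had 262 and 292 CPM at 12 h, 146 and 166 at 24 h (log2 change -0.82 ± 0.13, adjusted p = 0.00038). In each of these the 24 h libraries lay below the 12 h libraries. ORC1, of the origin recognition complex, had 32.4 and 38.6 CPM at 12 h, 18.4 and 18.8 at 24 h (log2 change -0.93 ± 0.15, adjusted p = 0.00051). POLE, the catalytic subunit of a leading strand polymerase, had 98.6 and 107 CPM at 12 h, 55.5 and 64.2 at 24 h (log2 change -0.76 ± 0.12, adjusted p = 0.00043). CLSPN, the claspin adaptor of the replication checkpoint, counted among the repair genes, had 16.4 and 18 CPM at 12 h, 4.88 and 6.02 at 24 h (log2 change -1.58 ± 0.19, adjusted p = 5.6e-05). These 3 did not overlap either, and all but RRM2 of the 6 were also called lower in vehicle.

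Regulators of G1 and S phase fell too, and none passed the test of the difference from vehicle. Of 20 tested, 10 were lower and none higher, at a median of -0.41 against -0.44 in vehicle (without each BaP library: 9, 4, 10 and 4 fell). E2F7, a repressive E2F, had 29.4 and 28.5 CPM at 12 h, 12 and 11.6 at 24 h (log2 change -1.31 ± 0.16, adjusted p = 6.5e-05). E2F8, its close relative, had 14.3 and 16.2 CPM at 12 h, 7.5 and 5.75 at 24 h (log2 change -1.31 ± 0.20, adjusted p = 0.00034). CCND3, cyclin D3, had 45.9 and 44 CPM at 12 h, 25.5 and 28.4 at 24 h (log2 change -0.71 ± 0.14, adjusted p = 0.0028). The groups of all 3 were apart. E2F7 and CCND3 were also called lower in vehicle (log2 changes -0.76 and -0.55), as was E2F2 (-0.93). E2F2, an activating E2F, had 11.7 and 11.9 CPM at 12 h, 7.5 and 5.69 at 24 h (log2 change -0.95 ± 0.20, adjusted p = 0.0046), a call lost without BaP 12 h replicate 2 (0.0503) or BaP 24 h replicate 2 (0.235) and after thinning (0.0554). Of 33 genes of mitosis only HMMR (0.63), a spindle protein, was higher, and none was lower, with a median of 0.02. The HMMR call was lost without BaP 12 h replicate 1 (0.193) or 2 (0.0689) or BaP 24 h replicate 2 (0.0796), with DESeq2 (0.0819), after thinning (0.521) and with the BaP libraries alone (0.0563). Without BaP 24 h replicate 1, 4 mitosis genes were higher and 1 lower, and none passed without any 1 of the other 3 libraries.

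E2F sites were searched as TTTCCCGC or TTTGGCGC on both strands, since many replication genes are known E2F targets. They occurred in 3.54% of all windows, in 1.94% of those of genes called higher and in 5.58% of those of genes called lower. Of 34 replication genes with a window 15 held a site (44.1%), and of the 17 called lower 8 did (47.1%). CLSPN (chr1:35769956-35770003 on the minus strand), POLE (chr12:132687333-132687380 on the minus strand) and E2F2 (chr1:23531248-23531295 on the minus strand) are shown as genes that fell. The site, in capitals, reads on the opposite strand in CLSPN and POLE, and begins 5, 18 and 42 bases before the start site.
CLSPN: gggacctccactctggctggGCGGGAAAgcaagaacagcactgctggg
POLE: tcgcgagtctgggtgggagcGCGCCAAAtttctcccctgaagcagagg
E2F2: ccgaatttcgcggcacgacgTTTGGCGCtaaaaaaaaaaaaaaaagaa
No binding was measured at these sites.

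Heat shock genes had the lowest median of the 38 lists, -0.63, against -0.37 in vehicle. Of 15 tested, 9 were lower and none higher (without each BaP library: 7, 5, 9 and 8 lower). HSPA8, the constitutive cytosolic chaperone, had 1295 and 1412 CPM at 12 h, 718 and 789 at 24 h (log2 change -0.84 ± 0.14, adjusted p = 0.00097). It fell in vehicle as well (log2 change -0.72 ± 0.14, adjusted p = 0.0095). HSPH1, a nucleotide exchange factor of HSPA8, had 126 and 126 CPM at 12 h, 70.2 and 62.1 at 24 h (log2 change -0.95 ± 0.12, adjusted p = 7.2e-05). BAG3, a co-chaperone, had 96.4 and 83.4 CPM at 12 h, 60.4 and 51.8 at 24 h (log2 change -0.70 ± 0.13, adjusted p = 0.0018). None of these groups overlapped. HSPA1A and HSPA1B, the inducible pair, fell by -1.24 ± 0.14 and -1.52 ± 0.13 on the log2 scale, but their transcripts are near-identical and the split between them is uncertain.

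The heat shock element was searched as GAA, TTC and GAA with 2 free letters between them, on both strands. It was in 0.279% of all windows and in 3 of 14 heat shock genes with a window. HSPA8 (chr11:123062159-123062211 on the minus strand) is shown as the most abundant of the members described above. Its element, in capitals, reads on the opposite strand and begins 55 bases before the start site.
HSPA8: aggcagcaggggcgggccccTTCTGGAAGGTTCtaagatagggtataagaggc
The same element occurred in 4 of 842 windows of genes called lower and 3 of 1134 of genes called higher.

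Sterol synthesis was lower at 24 h. Of 24 genes tested, 14 fell and none rose, at a median of -0.48 against -0.08 in vehicle (without each BaP library: 8, 4, 12 and 6 fell). None passed the test of the difference from vehicle. SQLE, squalene epoxidase, had 93.6 and 109 CPM at 12 h, 61.2 and 52.5 at 24 h (log2 change -0.86 ± 0.13, adjusted p = 0.00032). DHCR7, which completes cholesterol, had 184 and 192 CPM at 12 h, 125 and 109.7 at 24 h (log2 change -0.69 ± 0.13, adjusted p = 0.0016). In both the 24 h BaP libraries were the lowest of the 8. Fewer genes of fatty acid synthesis were lower, 4 of 14, with none higher (3, 3, 7 and 2 lower). FASN, fatty acid synthase, had 1073 and 1169.8 CPM at 12 h, 703 and 539.7 at 24 h (log2 change -0.86 ± 0.16, adjusted p = 0.0017). PNPLA3, a lipid droplet enzyme, had 11 and 12.9 CPM at 12 h, 5.25 and 5.28 at 24 h (log2 change -1.19 ± 0.21, adjusted p = 0.0011).

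Amino acid transporters split, with 6 of 13 lower and 2 higher (without each BaP library: 4, 4, 6 and 5 lower, and 1, 2, 3 and 2 higher). SLC3A2, the heavy chain that SLC7A5 and SLC7A11 pair with, had 264 and 257 CPM at 12 h, 146 and 151 at 24 h (log2 change -0.81 ± 0.11, adjusted p = 0.00017). SLC1A4, a neutral amino acid exchanger, had 92.4 and 94.1 CPM at 12 h, 43.5 and 43.7 at 24 h (log2 change -1.1 ± 0.12, adjusted p = 1.6e-05). SLC38A2, an importer of neutral amino acids, went the other way, with 394 and 426 CPM at 12 h, 695 and 756 at 24 h (log2 change 0.82 ± 0.16, adjusted p = 0.002). In each of the 3 the groups did not overlap, and each was called in the same direction in vehicle.

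Genes of glycolysis and hypoxia were higher at 24 h. All 22 tested had a fold change above 0, where 51.8% of all genes tested did, and 10 were called higher (without each BaP library: 9, 6, 12 and 8). Their median was 0.49, beside 0.67 in vehicle. SLC2A1, a glucose transporter, had 566 and 598 CPM at 12 h, 1583 and 1453 at 24 h (log2 change 1.38 ± 0.15, adjusted p = 2.0e-05). NDRG1, a hypoxia-responsive gene, had 124 and 107 CPM at 12 h, 282 and 269 at 24 h (log2 change 1.26 ± 0.14, adjusted p = 3.0e-05). HK2, a hexokinase, had 83.8 and 97.7 CPM at 12 h, 146 and 154 at 24 h (log2 change 0.73 ± 0.13, adjusted p = 0.0011). The 24 h values were the higher in each. PGK1, phosphoglycerate kinase, had 296 and 296 CPM at 12 h, 452 and 512 at 24 h (log2 change 0.71 ± 0.13, adjusted p = 0.0016). BNIP3, a mitophagy receptor, and ANKRD37, a hypoxia-inducible gene, rose by 0.77 ± 0.12 and 1.83 ± 0.27 on the log2 scale. All 6 were called higher in vehicle too, and none passed the test of the difference.

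IGFBP1 and IGFBP3, of the insulin-like growth factor (IGF) axis, rose. IGFBP1, a secreted IGF-binding protein and FOXO target, had 626 and 737 CPM at 12 h, 2618 and 2696 at 24 h. It rose 3.9-fold (log2 change 1.96 ± 0.17, adjusted p = 2.5e-06). In vehicle IGFBP1 had 368 and 361 CPM at 12 h, 1408 and 1852 at 24 h and rose likewise (log2 change 2.16 ± 0.17, adjusted p = 7.0e-06). IGFBP3, the main carrier of IGF in plasma, had 2.33 and 2.08 CPM at 12 h, 9.0 and 11.6 at 24 h (log2 change 2.29 ± 0.28, adjusted p = 5.7e-05). Of 10 IGF genes 4 were higher and none lower (without each BaP library: 2, 2, 4 and 3 higher). Of 13 genes of gluconeogenesis and FOXO signalling 5 were higher and 1 lower (4, 3, 6 and 1 higher, and 1, 0, 1 and 0 lower). PPARGC1A, a coactivator of gluconeogenesis, had 14.1 and 15.5 CPM at 12 h, 24 and 31.4 at 24 h (log2 change 0.95 ± 0.18, adjusted p = 0.0019), a call lost without BaP 24 h replicate 2 (0.0976) and after thinning (0.0751). FOXO1, a factor that insulin holds back, had 32.9 and 34.3 CPM at 12 h, 48.8 and 57.7 at 24 h (log2 change 0.69 ± 0.14, adjusted p = 0.0026), lost without BaP 24 h replicate 2 (0.0725). ANGPTL4, a fasting-induced inhibitor of lipoprotein lipase from the list of fatty acid oxidation, had 4.77 and 4.39 CPM at 12 h, 11.6 and 14.8 at 24 h (log2 change 1.59 ± 0.23, adjusted p = 0.00019). IGFBP3, PPARGC1A, FOXO1 and ANGPTL4 were also called higher in vehicle (log2 changes 2.76, 1.2, 0.78 and 1.59). Neither they nor IGFBP1 passed the test of the difference.

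Immediate early genes rose in part. Of 21 tested, 9 were higher and none lower, at a median of 0.38 against 0.79 in vehicle (without each BaP library: 5, 5, 10 and 4 higher). EGR1, a zinc finger factor, had 34.9 and 40.4 CPM at 12 h, 80.3 and 108 at 24 h with BaP and 31.4 and 27.5 CPM at 12 h, 120.1 and 161 at 24 h with vehicle (log2 change 1.35 ± 0.17, adjusted p = 0.00016). IER3, an early response gene, had 243 and 217 CPM at 12 h, 579.6 and 790.2 at 24 h (log2 change 1.58 ± 0.20, adjusted p = 0.0003). CCN2, a matricellular protein induced by YAP, had 149.96 and 167 CPM at 12 h, 422 and 607 at 24 h (log2 change 1.7 ± 0.20, adjusted p = 0.00011). In these 3, replicate 2 was the higher of the 24 h libraries and the groups did not overlap. DUSP5, a phosphatase of ERK, had 5.11 and 5.77 CPM at 12 h, 15.4 and 30.5 at 24 h (log2 change 2.19 ± 0.30, adjusted p = 0.00076).

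Growth factor and actin genes gave more rises than falls. The list called EGFR family, here and above, holds that family and its ligands, and also DUSP6, ERRFI1 and SPRY4. Of 12 genes of the EGFR family 5 were higher and none lower (without each BaP library: 3, 3, 4 and 3 higher). The 5 were EGFR, ERBB3, DUSP6, ERRFI1 and SPRY4, and all but EGFR were also called higher in vehicle. The median of that list was 0.22 with BaP against 0.49 in vehicle, and none passed the test of the difference. EGFR had 17.9 and 17.6 CPM at 12 h, 46.9 and 38.1 at 24 h with BaP (log2 change 1.22 ± 0.17, adjusted p = 0.00016) and 27.6 and 20.3 CPM at 12 h, 29.4 and 27.8 at 24 h with vehicle. DUSP6, another phosphatase of ERK, had 125 and 141 CPM at 12 h, 270.5 and 332 at 24 h (log2 change 1.18 ± 0.14, adjusted p = 4.5e-05). Of 17 genes under SRF or YAP or of the actin cytoskeleton 6 were higher and 1 lower, TAGLN (-0.82 ± 0.17). ACTA2, smooth muscle actin, had 47.9 and 46.5 CPM at 12 h, 95.7 and 98.6 at 24 h (log2 change 1.05 ± 0.12, adjusted p = 2.4e-05). TPM2, a tropomyosin, had 15 and 12.5 CPM at 12 h, 29.6 and 28.2 at 24 h (log2 change 1.07 ± 0.17, adjusted p = 0.00057). ANKRD1, a YAP target, had 14.3 and 14.5 CPM at 12 h, 60.4 and 53.9 at 24 h (log2 change 1.97 ± 0.18, adjusted p = 4.2e-06). ACTA1, skeletal muscle actin, which is outside that list, fell, with 25.7 and 23.5 CPM at 12 h, 9.75 and 8.5 at 24 h (log2 change -1.47 ± 0.20, adjusted p = 0.00012).

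Liver genes shifted by member. Of 12 apolipoproteins 4 were higher and none lower (without each BaP library: 4, 1, 5 and 3 higher). The median of that list was 0.32 with BaP against 0.30 in vehicle. APOM, a carrier of sphingosine 1-phosphate, had 119.97 and 115 CPM at 12 h, 210.1 and 317 at 24 h (log2 change 1.18 ± 0.16, adjusted p = 0.00029). APOM rose in vehicle too (log2 change 1.07 ± 0.16, adjusted p = 0.0024). APOB, the core protein of secreted lipoproteins, had 6142 and 6966 CPM at 12 h, 8526 and 7759.9 at 24 h (log2 change 0.31, adjusted p = 0.26). Albumin, ALB, had 2081 and 2078 CPM at 12 h, 1969 and 2451 at 24 h and overlapped (log2 change 0.09, adjusted p = 0.77). Of 23 secreted liver proteins 7 were higher and 1 lower (3, 2, 11 and 5 higher, and 0, 0, 1 and 0 lower). FGA, the fibrinogen alpha chain, had 339 and 340.1 CPM at 12 h, 565 and 561 at 24 h (log2 change 0.73 ± 0.13, adjusted p = 0.0014). HAMP, the iron hormone hepcidin, had 123 and 111 CPM at 12 h, 52.9 and 71.4 at 24 h (log2 change -0.87 ± 0.16, adjusted p = 0.0025). Its 12 h BaP libraries were the highest of the 8. NR0B2, a repressor that curbs bile acid synthesis, had 121 and 127 CPM at 12 h, 238 and 348 at 24 h (log2 change 1.25 ± 0.16, adjusted p = 0.00016). SULT1A1, a sulfotransferase of phenols, had 164 and 167 CPM at 12 h, 236 and 265 at 24 h (log2 change 0.60 ± 0.12, adjusted p = 0.0022). It was called higher in vehicle as well (log2 change 0.49 ± 0.12, adjusted p = 0.027). AQP3, a channel for water and glycerol, had 21.7 and 23.3 CPM at 12 h, 44.3 and 54.7 at 24 h with BaP (log2 change 1.16 ± 0.18, adjusted p = 0.00038) and at most 6 CPM in any vehicle library. Its difference from vehicle was 0.96 ± 0.32, adjusted p = 0.28. No apolipoprotein, secreted liver protein or aquaporin passed the test of the difference, and neither did SULT1A1.

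Clock genes moved by member, with 5 of 18 higher and 1 lower, PER2 (-0.44). The PER2 call was lost with each of the 4 BaP libraries left out (0.0636 to 0.195), with DESeq2 (0.0956), after thinning (0.0934) and with the BaP libraries alone (0.0592). BHLHE40, a repressor of the clock that also responds to hypoxia, had 77 and 76.4 CPM at 12 h, 152 and 156 at 24 h (log2 change 1.01 ± 0.13, adjusted p = 6.5e-05). NFIL3, a repressor at D-box elements, had 23.6 and 28.6 CPM at 12 h, 45.4 and 52.8 at 24 h (log2 change 0.93 ± 0.14, adjusted p = 0.00038). HLF, an activator at the same elements, had 169.7 and 194 CPM at 12 h, 279 and 314 at 24 h (log2 change 0.71 ± 0.13, adjusted p = 0.0014). The groups of these 3 were apart, and each was called higher in vehicle too. NPAS2, a paralog of CLOCK, had 62.1 and 66.2 CPM at 12 h, 106 and 97.8 at 24 h (log2 change 0.66 ± 0.12, adjusted p = 0.0014).

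Targets of p53 showed little common movement, beside 10.1% of all genes called higher and 7.34% called lower. Of 36 tested 6 were higher and 4 lower, with a median of -0.04 (without each BaP library: 2, 1, 6 and 1 higher, and 0, 0, 7 and 0 lower). CDKN1A, the cell cycle inhibitor p21, had 421 and 369 CPM at 12 h, 409.7 and 451 at 24 h (log2 change 0.13, adjusted p = 0.6). The groups overlapped. MDM2, the ligase that degrades p53, had 161 and 175 CPM at 12 h, 134 and 122 at 24 h (log2 change -0.40, adjusted p = 0.054), lower in both 24 h libraries. It passed without BaP 24 h replicate 1 (0.0205), with no filter on low counts (0.012) and with DESeq2 size factors (0.0473). GDF15, a stress cytokine, had 1085 and 1145 CPM at 12 h, 1426 and 2221 at 24 h (log2 change 0.71, adjusted p = 0.093), higher in both 24 h libraries. It passed with no filter (0.000132), in edgeR's exact test (0.0427) and with a replicate block (0.0325). TP53I3, a quinone oxidoreductase induced by p53, had 60.9 and 46.5 CPM at 12 h, 101 and 92.4 at 24 h (log2 change 0.85 ± 0.14, adjusted p = 0.00084).

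Apoptosis and repair genes gave calls both ways, with shares of higher calls near that of all genes (10.1% higher and 7.34% lower). Of 25 apoptosis regulators 3 were higher and 4 lower (without each BaP library: 1, 1, 3 and 1 higher, and 2, 1, 5 and 1 lower). BCL2L1, which encodes the survival protein BCL-XL, had 385 and 377 CPM at 12 h, 639 and 746 at 24 h (log2 change 0.86 ± 0.14, adjusted p = 0.00056). BAK1, a pore-forming killer, had 49.1 and 54 CPM at 12 h, 34.1 and 29.3 at 24 h (log2 change -0.74 ± 0.14, adjusted p = 0.0018), a call lost without BaP 24 h replicate 2 (0.0508). Of 27 DNA repair genes 3 were higher and 4 lower (1, 1, 4 and 1 higher, and 1, 1, 5 and 1 lower). ERCC1, the partner of the XPF nuclease in nucleotide excision repair, had 26.6 and 27.6 CPM at 12 h, 49.1 and 48.8 at 24 h (log2 change 0.85 ± 0.14, adjusted p = 0.00061). Both 24 h BaP libraries were the highest of the 8 for ERCC1. DDB2, a sensor of DNA lesions, had 67.2 and 63.1 CPM at 12 h, 85.9 and 87.8 at 24 h (log2 change 0.42 ± 0.12, adjusted p = 0.021). That call was lost without BaP 12 h replicate 1 (0.0942) or 2 (0.208) or BaP 24 h replicate 2 (0.115), with DESeq2 (0.0547), after thinning (0.272) and with the BaP libraries alone (0.0554). BRCA1, of homologous recombination, had 26.5 and 26.9 CPM at 12 h, 20.3 and 17.4 at 24 h (log2 change -0.55 ± 0.15, adjusted p = 0.021). It was lost without the same libraries (0.0868, 0.144 and 0.311), with DESeq2 (0.0656) and after thinning (0.162).

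A few stress and immune genes rose singly. NEAT1, the long noncoding RNA of paraspeckles, had 62.3 and 77 CPM at 12 h, 232 and 186 at 24 h with BaP (log2 change 1.57 ± 0.18, adjusted p = 0.0002) and 57.9 and 86.2 CPM at 12 h, 89.7 and 87.4 at 24 h with vehicle. MT1A, a metallothionein, had 4.53 and 5.39 CPM at 12 h, 15.4 and 16.9 at 24 h (log2 change 1.7 ± 0.23, adjusted p = 0.00012). OAS1, an interferon-induced synthetase, had 7.32 and 7.31 CPM at 12 h, 18 and 18.5 at 24 h (log2 change 1.33 ± 0.22, adjusted p = 0.0008). All 3 were without overlap. Of 18 interferon-stimulated genes 6 were higher and 1 lower (without each BaP library: 3, 2, 6 and 2 higher, and 1, 0, 1 and 0 lower). HERPUD1, of endoplasmic reticulum-associated degradation, had 39.9 and 44.9 CPM at 12 h, 73.2 and 79.5 at 24 h (log2 change 0.86 ± 0.13, adjusted p = 0.00026). CD3D, a T cell receptor chain, had 0.698 and 1.08 CPM at 12 h, 4.88 and 7.43 at 24 h (log2 change 2.83 ± 0.39, adjusted p = 0.00015), while CD3E and CD2 were at 0. PDGFRB, a mesenchymal receptor, had 8.95 and 9.08 CPM at 12 h, 24.4 and 20.3 at 24 h (log2 change 1.26 ± 0.17, adjusted p = 0.00011), while DCN and LUM were at 0. COL1A1, the other fibroblast marker tested, had 19.8 and 10.9 CPM at 12 h, 6.75 and 5.15 at 24 h (log2 change -1.44, adjusted p = 0.34). It was lower in both 24 h libraries without passing, and passed with a replicate block (0.0034) and with the BaP libraries alone (0.0164).

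Counts for oxidative phosphorylation and protein turnover depended on single libraries. Of 28 nuclear-encoded respiratory chain genes 6 were higher and none lower, at a median of 0.46 (without each BaP library: 2, 0, 23 and 0 higher). The median was 0.08 without BaP 24 h replicate 2. UQCRB, of complex III, had 74.5 and 61.1 CPM at 12 h, 81.4 and 113 at 24 h (log2 change 0.56 ± 0.15, adjusted p = 0.021), lost without BaP 12 h replicate 2 (0.235) or BaP 24 h replicate 2 (0.381) and with the BaP libraries alone (0.0534). Of 30 proteasome subunits none passed, and without BaP 24 h replicate 1 18 were higher and 1 lower. PSMB1, a proteasome subunit, had 243 and 221 CPM at 12 h, 248 and 449 at 24 h (log2 change 0.60, adjusted p = 0.09). Replicate 1 of BaP 24 h was near the 12 h libraries and replicate 2 well above them, and PSMB1 passed without the former (5.8e-06) and with no filter on low counts (0.000695). None of 15 mitochondrially encoded genes passed, and 5 were higher without BaP 24 h replicate 1.

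The remaining lists gave calls in one or both directions, beside 17.4% of all genes called. Of 24 splicing factors 7 were higher (without each BaP library: 1, 0, 6 and 3) and 2 lower (2, 0, 3 and 1), which makes 37.5% called. Of 11 CYP2, CYP3 and conjugation genes 4 were higher (1, 1, 3 and 1) and none lower. Of 14 genes of fatty acid oxidation 4 were higher (2, 1, 4 and 2) and 1 lower (0, 0, 2 and 0). Of 10 long noncoding and snoRNA host genes 3 were higher (2, 1, 6 and 1) and none lower. Of 10 BMP targets 3 were lower (3, 2, 3 and 2) and none higher. Among 16 liver transcription factors, with 31.2% called, 2 were higher (1, 1, 2 and 1) and 3 lower (1, 1, 3 and 1). Acute phase genes, WNT genes and metallothioneins each had 33.3% called. Of 12 acute phase genes 3 were higher and 1 lower. Of 12 WNT genes 3 were higher (1, 1, 2 and 3) and 1 lower (0, 0, 2 and 0). Of 9 metallothioneins 2 were higher (1, 1, 3 and 1) and 1 lower (1, 0, 1 and 1). Of 5 aquaporins 1 was higher (1, 1, 2 and 1) and 1 lower (0, 0, 1 and 0). Below the share of all genes were the unfolded protein response, with 2 of 19 higher (1, 1, 2 and 1) and 1 lower (1, 1, 1 and 2), and clustered histones, with 1 of 13 lower (1, 0, 1 and 1).

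**Figure D4:**
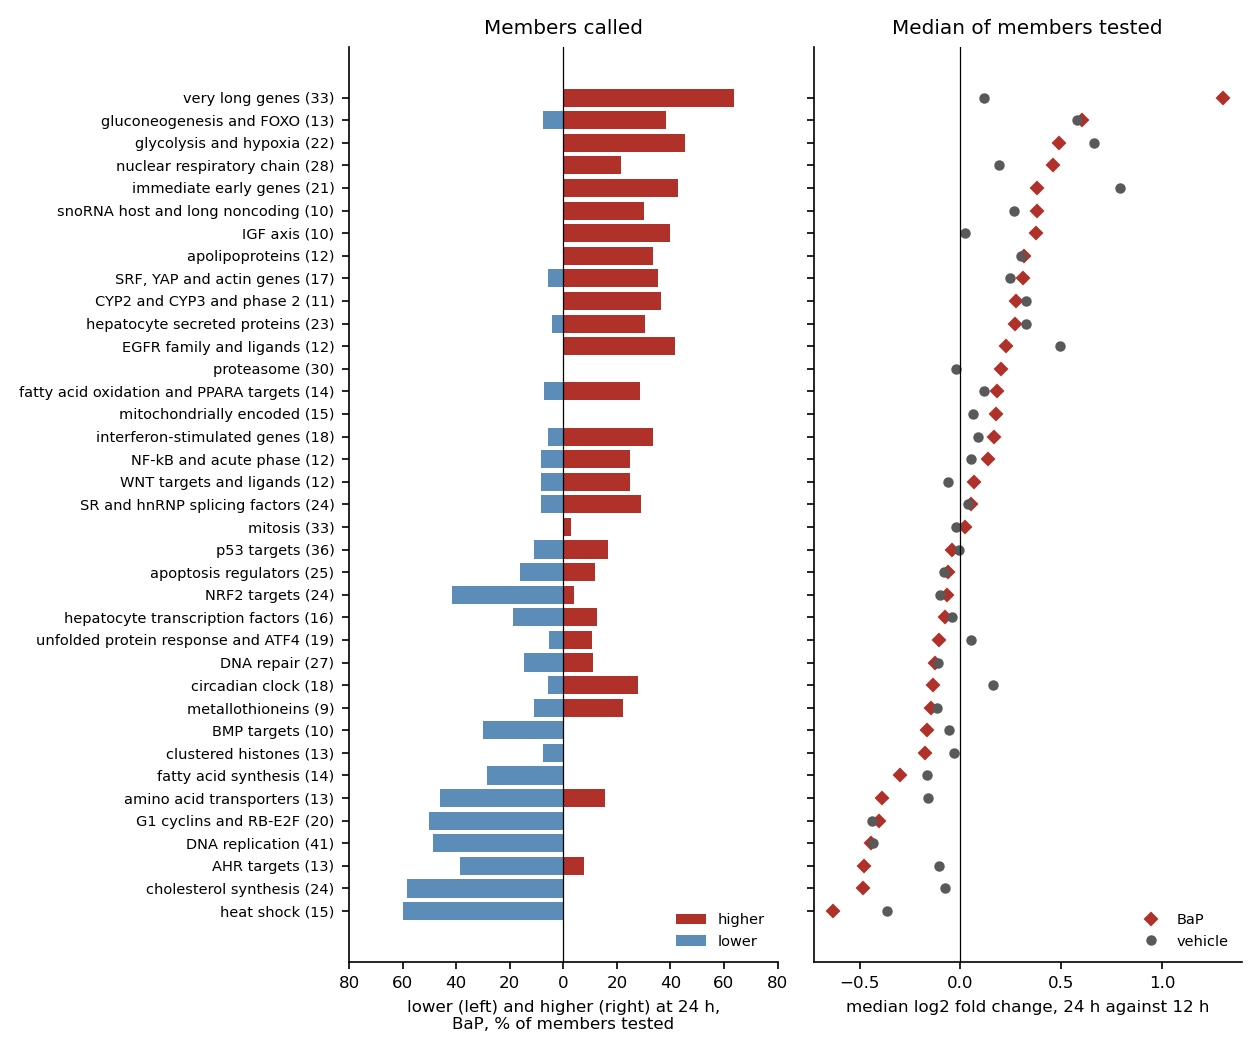
Left, percent of the tested members of each gene list called lower (blue, to the left) or higher (red, to the right) at 24 h with BaP; right, the median log2 fold change of the members with BaP (diamonds) and vehicle (circles). The 37 lists with at least 9 tested members are shown, with that number in brackets; heat shock, cholesterol synthesis and AHR targets have the lowest BaP medians (-0.63, -0.48 and -0.48) and very long genes the highest (1.3).

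Several of the largest rises, those of ROBO4, VSIR and PTP4A3, were of genes of low level outside these groups. ROBO4, a receptor first described in endothelium, had 1.05 and 0.77 CPM at 12 h, 12.8 and 16.3 at 24 h. It rose 16.9-fold (log2 change 4.08 ± 0.42, adjusted p = 5.1e-05) while the endothelial markers KDR and TEK were at 0. CDH5, the endothelial marker tested, had 0.465 and 0.616 CPM at 12 h, 0.375 and 1.0 at 24 h (log2 change 0.64, adjusted p = 0.53) and 1.18 and 0.699 CPM at 12 h, 2.21 and 3.0 at 24 h with vehicle. With BaP its groups overlapped. In vehicle ROBO4 had 4.65 and 1.75 CPM at 12 h, 13.7 and 15.4 at 24 h (log2 change 2.18 ± 0.32, adjusted p = 0.0028). VSIR, an immune checkpoint protein, had 3.02 and 2.0 CPM at 12 h, 11.3 and 11.7 at 24 h (log2 change 2.23 ± 0.31, adjusted p = 0.00015). PTP4A3, a prenylated phosphatase, had 1.86 and 2.77 CPM at 12 h, 7.5 and 9.9 at 24 h (log2 change 1.94 ± 0.29, adjusted p = 0.0003). TNS1, a tensin, spans 234 kb, in the class from 200 kb to 300 kb. It had 38.9 and 29 CPM at 12 h, 130.2 and 129 at 24 h (log2 change 1.94 ± 0.18, adjusted p = 1.9e-05). All 24 h BaP values of ROBO4, VSIR, PTP4A3 and TNS1 were above all their 12 h BaP values. VSIR, PTP4A3 and TNS1 were also called higher in vehicle (log2 changes 1.4, 1.2 and 1.7, adjusted p = 0.029, 0.0097 and 0.00021). Neither they nor ROBO4 passed the test of the difference (adjusted p = 0.615, 0.561 and 0.761, and 0.235 for ROBO4). DISC1, a scaffold of 414 kb, rose by 2.08 ± 0.23 on the log2 scale, by more than in vehicle (difference 1.52 ± 0.30, adjusted p = 0.026). It thus belonged to the long genes with a more positive change described above.

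The largest falls outside the groups were of MAP1A, NKAIN1 and FAM111B. MAP1A, a microtubule-associated protein, had 14.8 and 11.7 CPM at 12 h, 3.0 and 1.94 at 24 h (log2 change -2.59 ± 0.29, adjusted p = 2.4e-05), against at most 1.33 CPM in any vehicle library. Its log2 change in vehicle was -1.15 ± 0.48, and the difference was -1.44 ± 0.62, adjusted p = 0.46. NKAIN1, which interacts with the sodium pump, had 13.1 and 8.7 CPM at 12 h, 3.75 and 1.67 at 24 h (log2 change -2.33 ± 0.36, adjusted p = 0.00041), lost without BaP 24 h replicate 2 (0.0508). FAM111B, a protease, had 6.74 and 10.1 CPM at 12 h, 1.13 and 2.81 at 24 h (log2 change -1.79 ± 0.33, adjusted p = 0.0019). For all 3 the 24 h BaP values were below the 12 h BaP values. FAM111B was also called lower in vehicle (log2 change -1.2, adjusted p = 0.031), and none of the 3 passed the test of the difference. KBTBD6, a ubiquitin ligase adaptor, had 10.3 and 9.54 CPM at 12 h, 2.63 and 4.35 at 24 h (log2 change -1.33 ± 0.24, adjusted p = 0.0014), lost after thinning (0.052). PVRIG2P, a pseudogene whose reads may come from its parent gene, had 11.4 and 8.01 CPM at 12 h, 3.0 and 3.55 at 24 h (log2 change -1.48 ± 0.28, adjusted p = 0.0021).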

How the data were processed

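RNA-seq was analysed for 8 HepG2 libraries, 2 per group. The authors deposited gene-level estimated counts (expected counts), made with Bowtie 0.12.7 and RSEM 1.1.7 per the submitters' processing notes, which also name edgeR. For the genome build, nothing was given in the sources used. Counts were rounded to whole numbers. Names were matched to 41401 of 49733 gene identifiers, carrying 96.7% of counts.

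Genes passing filterByExpr (minimum count 10, minimum total 15) were tested with edgeR 4.0.16 in R 4.3.3 (TMM, quasi-likelihood, 1 mean per group over all 8 libraries, Benjamini-Hochberg over 14746 genes, threshold 0.05), a procedure tested on simulated data. The difference from vehicle was a contrast in that fit. Thinning drew each library down to 2592234 counts. Alternatives included DESeq2 1.42.0.

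Named genes were the 15 largest rises and falls with no overlap and a mean of at least 5 CPM, the 5 largest differences from vehicle each way, up to 6 members per list by smallest p, and 11 AHR and p53 genes. Members of 38 lists and 6 marker lists were chosen with earlier results of these data known; the E2F, antioxidant and heat shock motifs were chosen after the values were seen. Replicate numbers were not used as pairs, since the labels tie none to a shared day and the deviations of same-numbered libraries did not correlate in every pair of groups. Some genes that the rule named are not reported here.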

Additional observations from a re-analysis of the deposited data

Results flagged for a closer look

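Each of the following genes is listed because the change from 12 h to 24 h differed between BaP and vehicle by the test of that difference; the value is the log2 time change with BaP minus that with vehicle. It was positive for SNX29 (3.21), SHANK2 (2.24), PITPNC1 (2.24) and DIAPH2 (2.12). It was negative for HMOX1 (-1.75), GCLM (-1.51), OSGIN1 (-1.46), ATOH8 (-1.38) and GABARAPL1 (-1.37). The first 4 span more than 300 kb, and their BaP 12 h libraries were the lowest of the 8. HMOX1, GCLM, OSGIN1, ATOH8 and GABARAPL1 were at their highest in the BaP 12 h libraries. The difference for SNX29, SHANK2 and OSGIN1 was kept in each of the 13 other fits run, and that for the other 6 was lost in at least 1.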

How the results depend on the processing

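Depth limits the comparison, since BaP 24 h replicate 1 held 2592272 counts and 2 libraries a group give few degrees of freedom. From 12 h to 24 h with BaP, DESeq2 called 970 genes higher and 680 lower, and libraries thinned to equal depth gave 828 and 524. Leaving out 1 library gave 496 to 2109 higher and 263 to 1473 lower. Every gene called kept its direction except 2 of those fitted without BaP 24 h replicate 2, and 750 to 2520 of the 2573 calls were kept. For the difference from vehicle, no filter on low counts gave 171 more positive and 69 more negative, thinning 30 and 4, and leaving out 1 library 24 to 249 and 4 to 99. The cause was not tested.

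With the replicate number as a block, 1420 genes were higher and 1049 lower. For the difference from vehicle the block gave 67 and 13. Over 7299 genes, deviations of same-numbered libraries correlated at 0.424 between BaP 12 h and vehicle 12 h, at -0.239 between BaP 12 h and BaP 24 h, and between -0.0739 and 0.0644 in the other 4 pairs of groups. A crossed replicate block, chosen after seeing the data, gave 1578 higher and 1162 lower.

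Of 258 named genes, 125 kept direction and call throughout. These 14, none called, changed sign. After thinning SLC30A10 was 0.17. With 1 library left out the log2 fold changes ran from -0.025 to 0.74 (AQP6), -0.081 to 0.18 (SOX9), -0.61 to 0.027 (H2AZ1), -7.25 to 1.58 (HIST2H2AA3), -0.55 to 0.87 (CDH5), -0.083 to 0.23 (ALB), -0.75 to 0.22 (SLC30A10), -0.19 to 0.52 (MT-CO2), -0.084 to 0.66 (ZFAS1), -0.074 to 0.61 (GAS5), -0.014 to 0.703 (SNHG5), -0.33 to 0.16 (CYP1A2), -0.11 to 0.22 (NQO1) and -0.15 to 0.42 (ALDH3A1).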
